A study of Mus musculus with 6 samples.

Results

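Csnk1d, Csnk1e, Gsk3b, Btrc, Fbxl21, Timeless, Tipin, Usp2 and Wee1 encode the kinases, turnover factors and checkpoint partners that act on or beside the clock proteins. They were chosen by name, as all non-control probe sets that the platform annotation lists with 1 of these 9 symbols alone. This gave 27 probe sets, oligonucleotide groups that each report 1 signal, of 45037 on the array, and 9 genes of the 18193 that had a probe set with 1 symbol. Of the 27 probe sets, 26 passed the filter on low signal and were tested, and the single Fbxl21 probe set did not. The cells were mouse bone marrow cells of strain C57BL/6 cultured with 20% fetal bovine serum and 10 ng/ml interleukin-7, a cytokine that sustains early B lymphocytes. DKO 1 to DKO 3 lacked both cryptochrome genes (Cry 1/2 double KO), WT 1 to WT 3 were wild-type, and each label stands for 1 array. The sources used here give no age, sampling time or number of animals behind each array, and the array number limits the precision of every comparison. Early B lineage transcripts were uneven in brightness. The surrogate light chain genes Vpreb1 and Igll1 were bright on all 6 arrays, at 13707 to 51355 and 14442 to 58291. Pax5 read 148 to 340 and Rag2 185 to 603. Macrophage markers were uneven, with Csf1r at 910 to 26294 and Itgam at 27.0 to 127. The 14 granulocyte markers summed to 27986 in DKO 3 and 19379 to 179451 on the wild type arrays. In DKO 1 and DKO 2 they summed to 647 and 645, where presence could not be judged without detection calls. The labelled bone marrow cells were therefore taken as a mixture, though granulocytes were not shown on every array. In such a mixture fewer cells of a type and less RNA per cell cannot be told apart.

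In the circadian clock, CLOCK and BMAL1 drive the Period and Cryptochrome genes, whose proteins return to repress CLOCK and BMAL1. Casein kinase 1 delta and epsilon phosphorylate the Period proteins, the ubiquitin ligase adaptor beta-TrCP then marks them for the proteasome, and GSK3 beta and F-box proteins act on the cryptochromes and other clock proteins. TIMELESS and TIPIN travel with the replication fork and pass damage signals on to the checkpoint kinases, and WEE1 holds back entry into mitosis. The question put to the data was how these transcripts differ when both cryptochromes, the main repressors of the loop, are missing.

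No probe set of these genes passed the threshold of 0.05 for the limma adjusted p, with all 6 arrays (0 of 26) or without WT 2 (0 of 26). Across all 27022 tested probe sets 0.0074% passed with all 6 arrays and 0.0222% without WT 2. At an unadjusted limma p under 0.05 there were 2 member probe sets with all 6 arrays, both higher in DKO, against 3.12% of all probe sets (1.81% higher and 1.31% lower). Without WT 2 there were 3, namely 2 higher and 1 lower, against 4.39% (2.28% higher and 2.11% lower). The smallest adjusted p of a member was 0.822 with all 6 arrays and 0.949 without WT 2. The 3 probe sets were 1 of Usp2, 1 of Csnk1e and 1 of Timeless, and in Usp2 and Csnk1e the other probe sets of the same gene were not among them. With array weights, which gave WT 2 little weight, Usp2 1417168_a_at and Timeless 1417587_at were called. By the gene by gene method they were the 2 called of 26, where 3.41% of all probe sets were called. By REML, which stopped before convergence and gave WT 1 a weight of 30.8, they were among 6 of 26, where 30.1% of all were called. An adjusted p above the threshold does not show that the genotypes were alike.

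Upstream sequence is shown for Usp2 and Csnk1e, whose probe sets 1417168_a_at and 1435373_at had the largest positive differences, DKO minus WT, without WT 2. RefSeq windows of 300 bases around a transcript start (build GRCm38) were found for 5 of the 9 genes, 8 windows in all: Usp2, Timeless, Fbxl21, Gsk3b and, with 4 windows, Csnk1e. The letters CACGTG, the E-box on which CLOCK and BMAL1 bind, were searched on both strands and matched in 0 of the 8 windows, where 7.15% of all 32851 windows held a match. The related letters CACGTT, also on both strands, matched in 0 of the 8, where 4.68% of all windows did. The 4 Csnk1e windows overlap with their neighbours, so the 8 windows are not separate sequences. These counts describe the windows alone, which are too few to set the members apart from other genes. The 250 bases before the start are printed 5′ to 3′ on the strand of the gene, with GGGCGG and its reverse complement CCGCCC, the GC box of many promoters, in capitals.
Usp2, chr9:44084670-44084919, plus strand: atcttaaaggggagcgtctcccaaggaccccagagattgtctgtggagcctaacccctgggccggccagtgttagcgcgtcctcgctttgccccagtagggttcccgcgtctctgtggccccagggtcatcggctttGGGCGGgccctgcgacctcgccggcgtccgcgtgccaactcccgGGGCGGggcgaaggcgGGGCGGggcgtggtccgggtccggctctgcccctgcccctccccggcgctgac
Csnk1e, chr15:79442144-79442393, minus strand: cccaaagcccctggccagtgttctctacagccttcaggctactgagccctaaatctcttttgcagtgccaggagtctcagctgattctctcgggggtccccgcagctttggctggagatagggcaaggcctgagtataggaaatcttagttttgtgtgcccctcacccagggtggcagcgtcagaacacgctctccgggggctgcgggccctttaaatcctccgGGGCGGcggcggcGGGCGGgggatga
The Usp2 stretch was 71.6% G and C with 3 GC boxes, and the Csnk1e stretch, the farthest upstream of its 4 windows, was 61.2% G and C with 2. The other 3 Csnk1e stretches were 71.6% to 80.8% G and C with 4 to 5, where overlapping stretches share some of the same boxes. Of the genes not printed, Fbxl21 had 5 GC boxes, and Timeless and Gsk3b had 0. In all, 32.7% of windows held a GC box in these 250 bases. The search for GC boxes was added after the sequences were read.

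WT 2 differed from the other arrays in quality and decided the sign of many values, so it is given apart throughout. Its ratio of 3' to 5' signal was 824 for the Actb controls and 132 for the Gapdh controls, where the others read 1.47 to 2.05 and 0.838 to 1.72. Cry1 itself read 359, 399 and 545 in DKO 1 to 3, then 1533 and 955 in WT 1 and WT 3 and 1502 in WT 2. Cry2 was not lower in the arrays labelled DKO, at 162, 178 and 133 in DKO 1 to 3, then 145 and 105 in WT 1 and WT 3 and 102 in WT 2. Whether the probes of either gene lie in its deleted part is unknown here, so the loss of Cry2 was not checked by these arrays. Of all tested probe sets, 40.1% read more than 1 log2 unit lower in WT 2 than the mean of WT 1 and WT 3, and 7.29% more than 1 higher, with a median of -0.59. DKO 3 lay nearer to the wild type arrays than DKO 1 and DKO 2 did in granulocyte markers, whose summed signal over 14 genes was 647 and 645 in DKO 1 and DKO 2, 27986 in DKO 3, 76430 and 19379 in WT 1 and WT 3 and 179451 in WT 2, with 0 genes listed at 0.

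Csnk1d, which encodes casein kinase 1 delta, showed the strongest split between its own probe sets in WT 2. Probe set 1449932_at read 993, 1451 and 1091 in DKO 1 to 3, then 937 and 1349.9 in WT 1 and WT 3, and 7.93 in WT 2. Probe set 1437690_x_at, of a design class that can bind related transcripts, read 4353, 3847 and 3899 in DKO 1 to 3, then 3649 and 3838 in WT 1 and WT 3, and 20785 in WT 2. The first was thus lowest and the second highest in WT 2, while the other 5 arrays lay close together. On WT 2 the 5 Csnk1d probe sets differed from the mean of WT 1 and WT 3 by -6.57, -4.39, -3.51, 0.63 and 1.48 on the log2 scale. Probe set 1415825_s_at read 1645 to 2124 outside WT 2 and 148 in WT 2, and 1456727_a_at read 1141 to 1497 and 3699.6. The differences DKO minus WT followed this split, from -0.41 to 2.22 with all 6 arrays, 3 higher and 2 lower.

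Without WT 2 the Csnk1d probe sets came together. All 5 read slightly higher in DKO, by 0.03 to 0.36 in log2, where 47.5% of all tested probe sets read higher. For the brightest, 1437690_x_at, the log2 difference was 0.09 (standard error, SE, 0.18) at a limma adjusted p of 0.963, and the 95% interval ran from 0.784 to 1.44 in fold. Across the 5 arrays this probe set varied by no more than 1.25 in fold between the highest and the lowest. Probe set 1418889_a_at read 1019.5, 847 and 627 in DKO 1 to 3, beside 613 and 636 in WT 1 and WT 3. Its DKO arrays lay above WT 1 and WT 3 after centring, at 9.69 ± 0.22 (SD, n = 3) against 9.33 ± 0.16 (SD, n = 2), so that DKO read 0.36 higher at a limma adjusted p of 0.949 and an interval of 0.857 to 1.92 in fold.

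**Figure D1:**
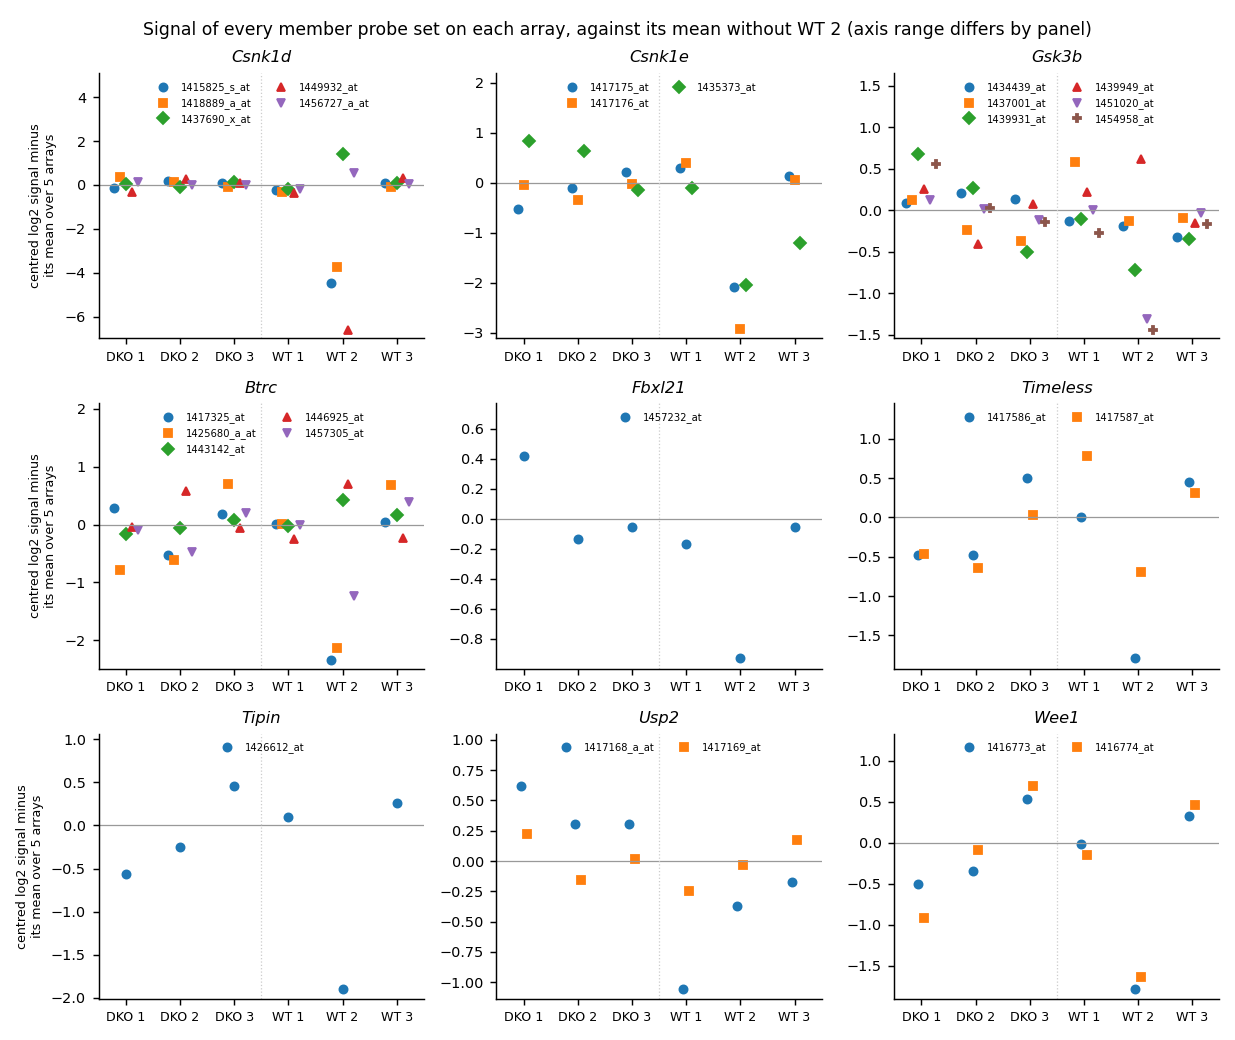
Centred log2 signal of each of the 27 probe sets on the 6 arrays (x axis), as the difference from that probe set's mean over the 5 arrays other than WT 2 (y axis, log2 units, range set per panel). One panel is 1 gene and each marker 1 probe set, and the Csnk1d markers in WT 2 run from far below 0 to above it while those on the other arrays lie near 0.

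Csnk1e encodes casein kinase 1 epsilon, the close relative of delta that also phosphorylates the Period proteins. Its brightest probe set, 1417176_at, read 862, 681 and 731 in DKO 1 to 3, then 1154 and 801 in WT 1 and WT 3, and 204 in WT 2. Probe set 1417175_at read 486, 636 and 685 in DKO 1 to 3, then 854 and 668 in WT 1 and WT 3, and 297 in WT 2. In both, WT 2 was the lowest array and WT 1 the highest. With all 6 arrays the differences were 0.69 (SE 0.87) and 0.41 (SE 0.69) in log2, and without WT 2 they were -0.36 and -0.35.

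The remaining Csnk1e probe set, 1435373_at, read the other way. Its signal was 337, 282 and 134 in DKO 1 to 3, then 164 and 57.9 in WT 1 and WT 3, and 71.5 in WT 2. DKO 1 and DKO 2 were above every wild type array, and DKO 3 lay below WT 1. The log2 difference was 1.56 (SE 0.54), with an unadjusted p of 0.023 and a limma adjusted p of 0.822, and without WT 2 it was 1.10 (SE 0.44) at a limma adjusted p of 0.949. With 1 further array left out beside WT 2 it ranged from 0.54 to 1.65, with the direction kept in 5 of 5 fits. Which Csnk1e transcripts this probe set reports was not tested. The median gene of the T and NK cell markers was also highest in DKO 1 and DKO 2, at 0.99 and 1.25 above its mean over 5 arrays. It read -0.62 in DKO 3 and -0.70, -0.74 and -0.45 in WT 1, WT 3 and WT 2. With all 6 arrays 6 of the 8 tested markers read higher in DKO and 2 lower. Cd2 went the other way, at 46.8 and 109 in DKO 1 and DKO 2 and 1528 in DKO 3. It read 534 and 2013 in WT 1 and WT 3 and 99.4 in WT 2. The summed signal of the 8 markers was 4154, 2929 and 2184 in DKO 1 to 3, beside 1213 to 2454 on the wild type arrays. Thy1 alone read 3389, 1617 and 490 in DKO 1 to 3, so the sum in DKO 1 and DKO 2 was largely that gene. None of the T and NK cell markers was listed at 0. This order of arrays was not theirs alone. The median of the 13 genes known for E-boxes was 0.80, 0.76 and 0.06 in DKO 1 to 3, beside -0.71 and -0.95 in WT 1 and WT 3. That of the pro-B and pre-B markers was 0.11, 0.24 and -0.17 in DKO 1 to 3, beside -0.15 and -0.09. The part of any of these lists in the result was not tested.

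Usp2, which encodes a deubiquitinase that acts on clock proteins and is a rhythmic transcript in many tissues, had a similar split. Probe set 1417168_a_at read 179, 137 and 116 in DKO 1 to 3, then 44.2 and 82.1 in WT 1 and WT 3, and 164 in WT 2. DKO arrays were all above WT 1 and WT 3, and the WT 2 signal as deposited lay among them. After centring on the array medians, WT 2 (6.68) lay below the lowest DKO array (7.35), so the groups did not overlap, at 7.46 ± 0.18 (SD, n = 3) against 6.52 ± 0.46 (SD, n = 3). The log2 difference was 0.94 (SE 0.33), with an unadjusted p of 0.024 and a limma adjusted p of 0.822.

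Without WT 2 the same probe set read 1.02 higher (SE 0.34), with a limma adjusted p of 0.949 and an interval of 1.16 to 3.54 in fold. With 1 more array left out it ranged from 0.58 to 1.46. The brighter Usp2 probe set, 1417169_at, read 279.6, 206 and 199 in DKO 1 to 3, then 194 and 233 in WT 1 and WT 3, and 439 in WT 2. Here the groups overlapped, and the difference was 0.06 with all 6 arrays and without WT 2, where the interval was 0.667 to 1.64 in fold. Its sign turned under quantile normalization (-0.35).

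**Figure D2:**
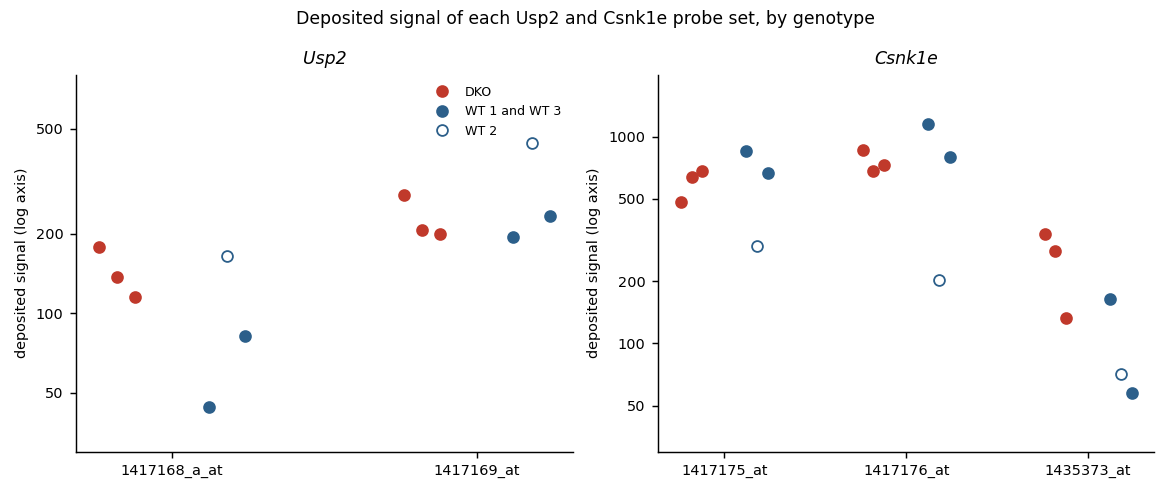
Deposited signal (y axis, log scale) of the 2 Usp2 and 3 Csnk1e probe sets (x axis) on each array, with DKO in red, WT 1 and WT 3 in filled blue and WT 2 as an open circle. For Usp2 1417168_a_at the DKO arrays sit at 116 to 179, above WT 1 and WT 3, and for 1417169_at the genotypes overlap.

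Btrc, which encodes the F-box protein beta-TrCP that recognises phosphorylated Period proteins, had 5 tested probe sets with no shared direction. The brightest, 1457305_at, read 377, 281 and 388 in DKO 1 to 3, then 394 and 465 in WT 1 and WT 3, and 313 in WT 2. As deposited, its DKO arrays spanned the range from below WT 2 to just under WT 1. After centring, WT 2 was the lowest array and DKO 3 (8.97) lay between WT 1 (8.77) and WT 3 (9.17). The log2 difference was 0.16 (SE 0.51) with all 6 arrays and -0.32 (SE 0.30) without WT 2, where the limma adjusted p was 0.949. Probe set 1425680_a_at read 168 and 188 in DKO 1 and DKO 2 and 419 in DKO 3, beside 298 and 426 in WT 1 and WT 3 and 117 in WT 2. DKO 3 thus matched WT 3 rather than the other DKO arrays.

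The remaining Btrc probe sets were dim, with 1417325_at at 75.6 to 148 in DKO, 105 to 117 in WT 1 and WT 3 and 33.0 in WT 2. Probe set 1443142_at was below the array median on all 6 arrays and 1446925_at on 4, and without WT 2 the 5 Btrc differences ran from -0.57 to 0.40, with 4 lower and 1 higher. Fbxl21, an F-box gene that acts on the cryptochromes, read 13.5, 3.66 and 1.84 in DKO 1 to 3, then 3.29 and 2.51 in WT 1 and WT 3 and 5.29 in WT 2. It was below the median on all 6 arrays, between the percentiles 3.02 and 22.8, and was not tested. No detection calls were at hand, so its signal is not separated from background.

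Gsk3b, the gene of glycogen synthase kinase 3 beta, was measured by 6 probe sets, and WT 2 moved it less than Csnk1d. The brightest, 1454958_at, read 4030.4, 2723 and 2087 in DKO 1 to 3, then 2216 and 2111 in WT 1 and WT 3, and 1853 in WT 2. DKO 1 was the highest and DKO 3 was level with the wild type arrays as deposited. After centring the groups did not overlap, at 11.64 ± 0.36 (SD, n = 3) against 10.86 ± 0.70 (SD, n = 3), which put DKO 0.78 higher (SE 0.49) at a limma adjusted p of 0.822. Without WT 2 it was 0.37 with an interval of 0.853 to 1.97 in fold. It stayed above 0 in every fit with arrays left out, from 0.17 to 1.01.

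The dimmer Gsk3b probe set 1434439_at did not overlap between the groups either, at 7.23 ± 0.06 (SD, n = 3) against 6.87 ± 0.095 (SD, n = 3), with a difference of 0.36 at a limma adjusted p of 0.822. As deposited it read 123, 132 and 105 in DKO 1 to 3, then 101 and 75.0 in WT 1 and WT 3, and 194 in WT 2, so that the order of WT 2 depended on centring. Probe set 1451020_at varied least of the 6 over the 5 arrays without WT 2, at 434, 393 and 305 in DKO 1 to 3, with 391 and 336 in WT 1 and WT 3 and 291 in WT 2, and its interval without WT 2 was 0.691 to 1.49 in fold. The last 3, 1437001_at, 1439931_at and 1439949_at, read 82.4 to 297 in DKO, 88.4 to 271 in WT 1 and WT 3, and 202 to 359.8 in WT 2, with overlapping groups. Of the 6 probe sets, 4 read higher and 2 lower in DKO in both fits, from -0.28 to 0.78 with all 6 arrays and from -0.40 to 0.37 without WT 2. Over all members, the groups did not overlap in 4 of the 26 probe sets with all 6 arrays, all higher in DKO, where 10.3% of all tested probe sets did not overlap, 6.97% being higher and 3.29% lower. These were 1 each of Csnk1d and Usp2 and 2 of Gsk3b. Without WT 2 they were 7 of 26, 5 higher and 2 lower, where the share of all probe sets was 18.5%, made up of 10.3% higher and 8.18% lower.

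Timeless, Tipin and Wee1 varied together over the arrays. With all 6 arrays the gap between DKO 3 and the other DKO arrays was larger than the genotype difference in all their probe sets. Without WT 2 this held for all but Timeless 1417587_at. Timeless, the fork protection factor, read 1858, 1812 and 3085 in DKO 1 to 3 with probe set 1417586_at, 2543 and 3065 in WT 1 and WT 3, and 1364 in WT 2. Tipin, its binding partner, read 5210.3, 6351 and 8893 in DKO 1 to 3, then 8091 and 8045 in WT 1 and WT 3, and 3807 in WT 2. Wee1, the kinase that inhibits CDK1, read 1539.9, 1684 and 2675 in DKO 1 to 3 with probe set 1416773_at, 2143 and 2403 in WT 1 and WT 3, and 1166 in WT 2. For each of these 3 probe sets DKO 3 was the highest of the 6 arrays, DKO 1 and DKO 2 were below WT 1 and WT 3, and WT 2 was the lowest.

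The dimmer Wee1 probe set, 1416774_at, read 135, 247 and 372 in DKO 1 to 3, with 237 and 328 in WT 1 and WT 3 and 153 in WT 2. DKO 3 was again the highest array, and DKO 1 the lowest as deposited. On the log2 scale DKO 3 exceeded the mean of DKO 1 and DKO 2 by 0.98 for Timeless, 0.86 for Tipin and 0.96 for Wee1, and by 1.19 for this second Wee1 probe set. Over all tested probe sets the median of this quantity was 0.14, and 7.58% were above 1. The differences DKO minus WT were 0.30, 0.39 and 0.38 (SE 0.67, 0.63 and 0.65) with all 6 arrays, and -0.37, -0.30 and -0.27 without WT 2, with limma adjusted p values of 0.949, 0.949 and 0.951. Without WT 2 the intervals in fold were 0.436 to 1.37, 0.499 to 1.33 and 0.473 to 1.46. All 3 intervals ran from lower to higher in DKO, so the direction of these 3 differences could not be told. The sign of all 3 turned when WT 2 was left out. With WT 2 kept, quantile normalization also turned it for Timeless (-0.17) and Wee1 (-0.088). Timeless further turned without centring (-0.012) and without DKO 3 (-0.026).

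The second Timeless probe set, 1417587_at, was lower in DKO in both fits. It read 326, 280.3 and 391 in DKO 1 to 3, then 785 and 493 in WT 1 and WT 3, and 523 in WT 2. All DKO arrays were below all wild type arrays as deposited, and after centring WT 2 (8.26) was the lowest array. The log2 difference was -0.49 (SE 0.49) at a limma adjusted p of 0.822. Without WT 2 it was -0.90 (SE 0.31), with an unadjusted p of 0.022 and a limma adjusted p of 0.949, and it lay between -1.14 and -0.67 with 1 further array left out. With WT 1 alone left out it was -0.17. The Timeless probe set 1417586_at did not show this separation, since DKO 3 was above WT 1 and WT 3 there.

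Genes of the replication fork and the ATR checkpoint and genes of mitotic entry, on lists that do not include the members, had a similar order of arrays. The median gene of the 18 fork and checkpoint genes read -0.25 and -0.33 in DKO 1 and DKO 2, 0.30 in DKO 3 and 0.00 and 0.21 in WT 1 and WT 3, each against the gene's mean over the 5 arrays. The median of the 13 genes around WEE1 was -0.24, -0.54 and 0.36 in DKO 1 to 3, beside 0.05 and 0.36 in WT 1 and WT 3. Proliferation markers (10 genes) read -0.24, -0.29 and 0.36 in DKO 1 to 3, beside 0.01 and 0.22 in WT 1 and WT 3. On WT 2 the 3 lists read -1.76, -2.35 and -1.31. The summed signal of the proliferation markers was 98463 and 94241 in DKO 1 and DKO 2, 120670 in DKO 3, 115959 and 118500 in WT 1 and WT 3 and 171402 in WT 2, with 0 genes listed at 0. Granulocyte markers were low on the same DKO 1 and DKO 2 arrays, and the part of either marker list in the Timeless, Tipin and Wee1 values was not tested.

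**Figure D3:**
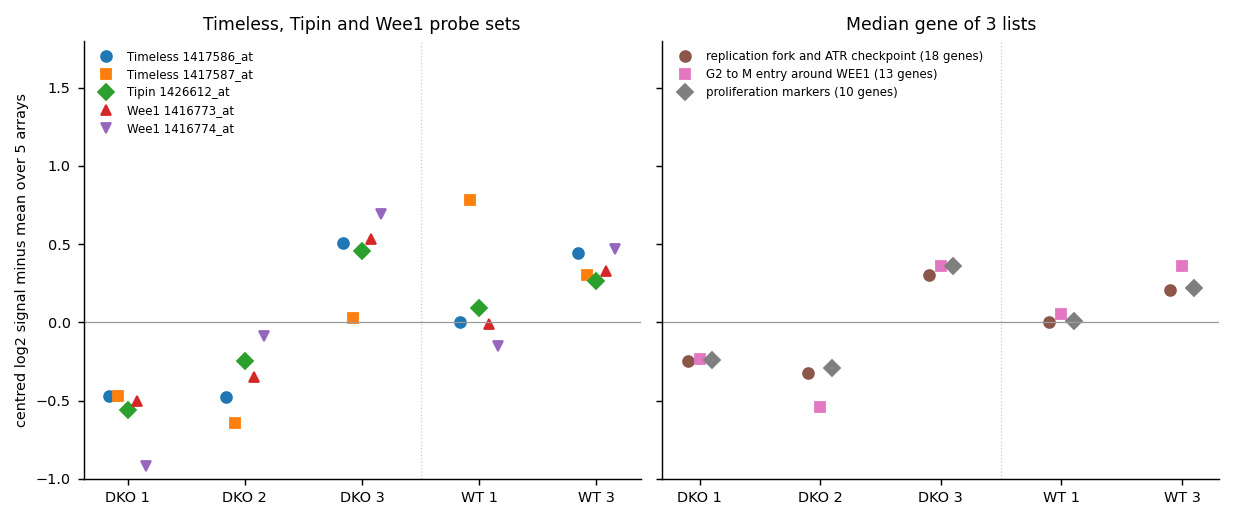
Left, centred log2 signal of the Timeless, Tipin and Wee1 probe sets on the 5 arrays other than WT 2, against each probe set's mean over them (y axis, log2 units); right, the same for the median gene of 3 lists. DKO 1 and DKO 2 lie below 0 in both panels, and DKO 3 lies with WT 3 above 0 for all but 1417587_at, which is near 0 for DKO 3.

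In the list of mitotic entry genes, 0 of 13 passed the limma threshold. With all 6 arrays 11 read higher and 2 lower in DKO, with a median of 0.49, and without WT 2 0 read higher and 13 lower, with a median of -0.38. All tested probe sets had a median of 0.21 with 64.9% higher in the first fit and a median of -0.02 with 47.5% higher in the second. The smallest p on the lower side was that of Cdc25a, the phosphatase that opposes WEE1. It read 1110.5, 1029.8 and 1402 in DKO 1 to 3, then 2318 and 1749.5 in WT 1 and WT 3, and 4327 in WT 2, and DKO was below WT on every array as deposited. Its log2 difference was -0.83 with all 6 arrays and -0.79 without WT 2, with limma adjusted p values of 0.822 and 0.949. On the higher side Cdk2, a cyclin-dependent kinase of S phase, read 1.08 with all 6 arrays and -0.04 without WT 2.

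Of the 18 fork and checkpoint genes 0 passed, with 13 higher and 5 lower with all 6 arrays (median 0.36) and 4 higher and 14 lower without WT 2 (median -0.15). The smallest p on each side with all 6 arrays belonged to Atrip, the partner of the ATR kinase, at 1.78 and 0.45 without WT 2, and to Chek1, the checkpoint kinase downstream of ATR, at -0.46 and -0.31. Atrip read 15.4 in WT 2 and 221 to 418 on the other arrays, so its value with all 6 arrays rested on that array. All limma adjusted p values of both genes were 0.822 or 0.949.

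Other kinases and phosphatases of clock proteins and other ubiquitin ligases and proteases showed 0 genes past the threshold of limma. Of 18 kinases and phosphatases, 14 read higher and 4 lower with all 6 arrays (median 0.66) and 11 and 7 without WT 2 (median 0.06). The AMP-activated kinase gene Prkaa2 had the smallest p on the higher side with all 6 arrays (0.98, and 0.80 without WT 2), and the phosphatase subunit gene Ppp1cc on the lower side (-0.41 and -0.14). Without WT 2 the unadjusted limma p was under 0.05 for Mapk8, a stress-activated kinase (-1.11), and Ppp5c, a phosphatase (0.49), both named after their values were seen and both at an adjusted p of 0.949. Of 17 ligase and protease genes, 13 read higher and 4 lower (median 0.72), and 8 and 9 without WT 2 (median -0.005). Cul4a, a cullin scaffold, read 0.83 and 0.34, and Rbx1, the RING subunit of cullin ligases, read -0.63 and -0.50, these being the smallest p on each side with all 6 arrays. Without WT 2 Ube3a, a ubiquitin ligase gene named after its values were seen, read -0.63 at an unadjusted limma p of 0.0463 and an adjusted p of 0.949. Fbxw11, the second beta-TrCP gene, read 44649 in WT 2 and 9204 to 12284 on the other arrays, with a difference of -0.0045 without WT 2, and is named here after its values were seen.

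Genes known for E-boxes that CLOCK and BMAL1 bind give a scale for these values. Per2 read 390.2, 334 and 402 in DKO 1 to 3, beside 51.2, 42.4 and 54.5 in WT 1, WT 3 and WT 2, a log2 difference of 2.89 with a limma adjusted p of 0.186. The median of the 13 E-box genes was 1.27 with all 6 arrays and 1.48 without WT 2, and that of the 8 tested member genes, each by its brightest probe set, was 0.34 and -0.28. Of the 13 E-box genes 0 passed the limma threshold, and 10 read higher and 3 lower in DKO in both fits. The list includes Cry1 and Cry2, which are named in the genotype. Cry1 had the smallest p on the lower side at -1.26, and Hlf (-0.21) and Bhlhe41 (-0.54) also read lower. No test of the difference between the E-box genes and the members was made.

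**Figure D4:**
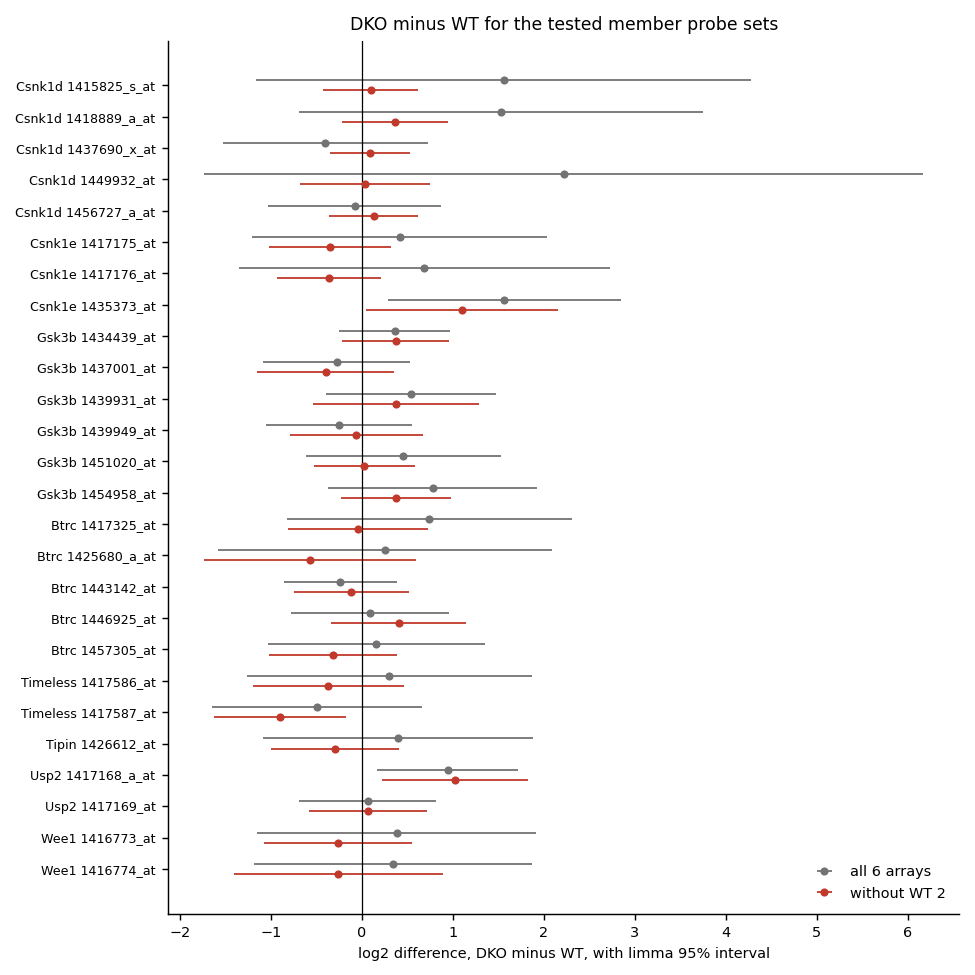
Log2 difference DKO minus WT (x axis) with its limma 95% interval for the 26 tested member probe sets (y axis), in grey with all 6 arrays and in red without WT 2. Without WT 2 the intervals are narrower for Csnk1d and exclude 0 for Csnk1e 1435373_at, Timeless 1417587_at and Usp2 1417168_a_at, none of which passed the adjusted threshold.

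The patterns over the arrays were also described by Pearson's r across the representative probe sets of 12627 tested genes, with no test, over 6 arrays that share WT 2 as the array farthest from the rest. Timeless and Wee1 had r = 0.996 over the 6 arrays and 0.984 over the 5 without WT 2, Tipin and Wee1 0.994 and 0.979, and Timeless and Tipin 0.984 and 0.944. Btrc was also like them, with 0.969 and 0.878 for Timeless, 0.947 and 0.78 for Wee1, and 0.928 and 0.681 for Tipin. Over the 6 arrays 3069 genes had an r above 0.9 with Timeless and 3347 with Wee1, so that this likeness was common. The genes most like each member were Mdc1 for Timeless (r = 0.999), Ppat for Tipin, Lipt2 for Wee1, Fryl for Csnk1e, Uqcrb for Csnk1d, Gm11696 for Gsk3b and Nagpa for Btrc, all above 0.99. Over the 6 arrays Usp2, by its brighter probe set, was apart from the others, with 14 genes above 0.9 and Ttll10 the most like (r = 0.980). This rested on WT 2 for some pairs. With Csnk1d its r was 0.08 over the 6 arrays and 0.797 over the 5 without WT 2. Over those 5 it was 0.583 with Gsk3b and 0.481 with Btrc. With the remaining members it ran from -0.201 (Csnk1e) to 0.145 (Timeless).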

How the data were processed

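RNA of cultured mouse bone marrow cells was measured on 6 arrays, 3 labelled DKO and 3 WT. The deposited table holds linear intensity, and MAS5 is the tool that the submitters' processing notes name, without a version. On every array the signal averaged 500 after trimming 2% at either end. A genome build is not given in the sources used here. No label ties arrays to animals or separate cultures, so p-values cover the spread among these arrays alone, which may be technical.

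Values were taken as log2(intensity + 16), which understates changes of dim genes, and each array was centred on its median, since medians differed by 1.13. The 27022 probe sets whose mean exceeded percentile 40 entered the fit. Group was the single term in limma 3.58.1 (R 4.3.3), with trended moderated variances, two-sided, and Benjamini-Hochberg adjustment over all tested probe sets. The fit without WT 2 repeated centring and filter on 5 arrays. Each listed gene was represented by the brightest of its single-symbol probe sets. All 27 member probe sets matched the gene table of GRCm38.p6 by gene identifier. From each clock, ligase and checkpoint list the text names genes that passed or, with none, the smallest p on each side. It also names the gene with the highest r to each member.

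The members, lists and tests were chosen with earlier results of these data known. Markers of erythroid and megakaryocyte cells (3 of 6 tested higher in DKO), macrophages and monocytes (1 of 13) and pro-B and pre-B cells (7 of 11) were counted by the same fit. The fit was also run on simulated data, where it missed most of the smaller added changes. Python 3.11.15, numpy 2.4.6, pandas 2.3.3 and matplotlib 3.10.9 were used. Other settings were normalization, pseudocount, filter, variance model, array weights, the replicate block and arrays left out.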

Additional observations from a re-analysis of the deposited data

How the results depend on the processing

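Apart from array weights, 0 of the member probe sets passed limma's adjusted threshold in any setting, with a smallest adjusted p of 0.0588 when WT 2 and DKO 3 were both left out. Array weights changed this. By REML, which stopped before convergence and gave WT 1 a weight of 30.8 and WT 2 one of 0.0526, 6 member probe sets and 8129 in all passed. By the gene by gene method, added after seeing the data, 2 did, Timeless 1417587_at and Usp2 1417168_a_at, with 922 in all and a smallest member adjusted p of 0.0409. Over all probe sets the count of 2 became 0 with quantile normalization, other centring, no centring, a pseudocount of 1 and the replicate block, 1 with a filter at percentile 60 or robust variances, 5 with quantile normalization without WT 2, 6 without WT 2, and 0 to 1137 over all fits with arrays left out, the highest without WT 2 and DKO 3. Leaving out a second array beside WT 2 was also chosen after seeing the data.

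The representative probe sets changed sign as follows, each cause not tested beyond the construction of the setting. With REML weights Csnk1d read 0.13, Csnk1e -0.63, Btrc -0.32, Timeless -0.40, Tipin -0.35 and Wee1 -0.30, and gene by gene 0.051, -0.49, -0.40, -0.495, -0.39 and -0.38. Without WT 2 under quantile normalization these 6 read 0.105, -0.35, -0.30, -0.36, -0.29 and -0.24. Quantile normalization of all 6 arrays gave Btrc -0.20, Timeless -0.17, Usp2 -0.35 and Wee1 -0.088. Centring on tested probe sets gave Btrc -0.135 and Usp2 -0.23, no centring Btrc -0.15, Timeless -0.012 and Usp2 -0.25, and a pseudocount of 64 Usp2 -0.012. The median of a gene's probe sets was 1.53 for Csnk1d and -0.096 for Timeless. With arrays left out Csnk1d ranged from -0.71 to 0.21, Csnk1e from -0.53 to 1.29, Btrc from -0.52 to 0.50, Timeless from -0.70 to 0.75, Tipin from -0.58 to 0.78, Usp2 from -0.149 to 0.275 and Wee1 from -0.59 to 0.79. Gsk3b kept its sign in every setting run.

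Arrays with the same number share only that number. Their deviations from the group means correlated at -0.151, -0.002 and 0.334 for numbers 1 to 3, and with the replicate block 0 member probe sets were called. Signal over background could not be judged for dim probe sets without detection calls.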
